A study of Mus musculus with 24 samples.

Results

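Of the 33034 genes in the deposited table, 42 genes of mitosis and the spindle were described here by name, in 9 roles: 6 of the cyclin-CDK switch into mitosis, 5 of the spindle poles, 7 of the kinetochore, 4 of the spindle checkpoint, 4 of anaphase, 3 of the chromosomal passenger complex, 6 of the central spindle and cytokinesis, 5 of chromosome structure, and the pair Foxm1 and Mki67. They were chosen by gene name, with earlier results of these data known, and all 42 were abundant enough to be tested in every comparison. The libraries came from MOVAS, an immortalised line of smooth muscle cells from mouse aorta, and fell into 8 groups of 3. ADAM9i cells, of WT genotype and given an inhibitor of the metalloprotease ADAM9, were set against WT cells without it. Adam9-KO cells were set against Rosa26-KO cells, edited at the neutral Rosa26 locus. Each of these 4 backgrounds received rhCTHRC1, recombinant human protein of the secreted factor CTHRC1, or vehicle. The labels name no inhibitor compound, dose or time, do not say whether a knockout is 1 clone, and do not say whether the 3 libraries of a group were separate cultures, so p-values measure the spread between libraries, which may be technical.

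At the start of mitosis cyclin B bound to the kinase Cdk1 switches on chromosome condensation, nuclear envelope breakdown and spindle assembly. Kinetochores then attach chromosomes to microtubules. Until all are attached, the spindle checkpoint inhibits Cdc20, the activator of the anaphase-promoting complex. Once Cdc20 is free, the active complex leads to loss of securin and cyclin B, chromosome separation and cytokinesis. Most of these genes are transcribed late in the cell cycle through promoters bound by the MuvB complex with B-Myb and FoxM1, which recognise a cell cycle homology region (CHR) near the start, often with CCAAT boxes bound by NF-Y upstream. In the artery wall smooth muscle cells divide rarely, and division returns when they lose the contractile state.

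RefSeq promoters of the GRCm38.p6 build, from 250 bases before to 50 bases after the start, were matched for 33 of the 42 genes. A CHR, written TTTGAA or TTCGAA and searched on both strands, was found in 26 of these 33 (78.8%), against 21.7% of 27025 genes with a promoter in the table. CCAAT, also on both strands, was found in 26 of 33 (78.8%), against 41.1% of all, and both motifs together in 23 of 33 (69.7%), against 8.61% of all. The CHR lies in 5 of 5 matched genes of cytokinesis and 4 of 4 of chromosome structure, and in 4 of 6 of the kinetochore. TTCGAA reads the same on both strands and was counted once, and matches of both motifs that share bases count for each. A match of letters is a description, not a bound site. The promoters below are shown because their genes lead or stand apart in the results, with CHR and CCAAT letters of either strand in capitals. Cdk1, Ccnb2, Bub1, Ect2 and Plk1 hold both motifs. Ccnb1 holds CCAAT without TTTGAA or TTCGAA, the only CHR forms searched, and Mad2l1 holds neither motif in this window. The Mad2l1 window ends before the gene start given with the counts, chr6:66535390, and the Kif2c window lies inside its gene. Neither window thus covers that gene's start.
Cdk1, chr10:69352863-69353162, minus strand: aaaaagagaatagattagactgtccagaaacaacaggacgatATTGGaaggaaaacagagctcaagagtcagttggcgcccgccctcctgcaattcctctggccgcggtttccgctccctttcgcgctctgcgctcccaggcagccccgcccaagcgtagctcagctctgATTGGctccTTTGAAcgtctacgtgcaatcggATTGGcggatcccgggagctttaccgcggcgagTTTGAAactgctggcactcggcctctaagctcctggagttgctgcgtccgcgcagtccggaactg
Ccnb2, chr9:70421505-70421804, minus strand: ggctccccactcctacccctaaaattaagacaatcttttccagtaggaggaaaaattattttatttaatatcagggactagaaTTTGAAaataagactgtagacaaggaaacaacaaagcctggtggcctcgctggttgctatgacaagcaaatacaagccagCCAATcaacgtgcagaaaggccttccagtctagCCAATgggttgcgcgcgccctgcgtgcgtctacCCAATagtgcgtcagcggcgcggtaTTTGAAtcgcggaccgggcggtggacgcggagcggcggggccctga
Bub1, chr2:127831810-127832109, minus strand: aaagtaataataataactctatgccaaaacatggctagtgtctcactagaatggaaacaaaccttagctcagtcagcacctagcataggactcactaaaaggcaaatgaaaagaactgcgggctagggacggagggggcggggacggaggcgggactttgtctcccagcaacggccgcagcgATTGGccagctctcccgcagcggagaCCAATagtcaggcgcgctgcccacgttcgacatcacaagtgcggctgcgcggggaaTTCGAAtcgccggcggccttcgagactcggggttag
Ect2, chr3:27153805-27154104, minus strand: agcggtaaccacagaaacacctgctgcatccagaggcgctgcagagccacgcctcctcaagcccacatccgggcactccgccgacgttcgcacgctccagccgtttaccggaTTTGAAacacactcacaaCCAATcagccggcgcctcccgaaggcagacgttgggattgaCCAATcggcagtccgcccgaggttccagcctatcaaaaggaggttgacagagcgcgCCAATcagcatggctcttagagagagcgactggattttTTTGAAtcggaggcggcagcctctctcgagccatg
Plk1, chr7:122159185-122159484, plus strand: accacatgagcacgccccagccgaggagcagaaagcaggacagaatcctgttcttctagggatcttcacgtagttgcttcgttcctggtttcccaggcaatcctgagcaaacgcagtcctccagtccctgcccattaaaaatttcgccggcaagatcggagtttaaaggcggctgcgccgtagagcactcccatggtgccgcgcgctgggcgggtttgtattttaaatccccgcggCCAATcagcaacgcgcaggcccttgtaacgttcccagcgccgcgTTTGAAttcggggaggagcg
Ccnb1, chr13:100786437-100786736, minus strand: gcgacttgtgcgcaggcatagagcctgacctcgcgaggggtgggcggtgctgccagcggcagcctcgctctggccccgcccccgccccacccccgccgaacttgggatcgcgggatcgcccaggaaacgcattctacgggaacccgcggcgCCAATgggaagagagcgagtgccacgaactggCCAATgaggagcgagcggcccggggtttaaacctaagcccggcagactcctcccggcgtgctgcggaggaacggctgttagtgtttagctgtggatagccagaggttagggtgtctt
Mad2l1, chr6:66534971-66535270, plus strand: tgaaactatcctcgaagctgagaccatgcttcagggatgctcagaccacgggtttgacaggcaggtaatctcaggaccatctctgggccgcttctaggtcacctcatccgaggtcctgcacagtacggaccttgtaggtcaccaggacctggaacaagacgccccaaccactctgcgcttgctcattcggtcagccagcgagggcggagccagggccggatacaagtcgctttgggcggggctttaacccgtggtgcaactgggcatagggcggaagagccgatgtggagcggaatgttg

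Levels are given as CPM, read counts scaled by library size and TMM factor, except where genes are compared with each other, which uses the authors' FPKM. Libraries held 53135752 to 65833125 counts, and the least abundant value among the 42 genes was 667 counts, of Spc24 in a WT vehicle library. Per length, in Rosa26-KO vehicle cells, the levels ran from 6.71 ± 0.194 FPKM for Cdc25c, the phosphatase that activates Cdk1, to 81.5 ± 4.02 FPKM for the condensin ATPase Smc4 (SD, n = 3 each). Between them Cdk1 had 32.2 ± 1.49 FPKM, Mki67 51.3 ± 2.26 FPKM and the checkpoint protein Mad2l1 13.8 ± 0.453 FPKM in the same cells. Adam9 mRNA was present in the knockout, at 130.1 to 149.8 CPM in the 6 Adam9-KO libraries against 228.9 to 294.9 CPM in the 6 Rosa26-KO libraries. Of 8 smooth muscle markers, Acta2 (39.1 to 482.3 CPM over the libraries) and Smtn (69.8 to 98.7 CPM) made up most of the summed level. Tagln, Des and Lmod1 reached at most 15.5, 11.4 and 8.71 CPM, and Myocd, Cnn1 and Myh11 at most 2.88, 1.87 and 0.854 CPM, so the late contractile markers were at or near 0. WT vehicle libraries stood apart from the other 21. In 27 of the 42 genes every WT vehicle library lay below all 21 others, where 16.6% of 19891 genes did so, and in 0 of the 42 above them, where 17.6% did. All WT libraries, with rhCTHRC1 and with vehicle, are titled in a style of their own, with letter codes that the labels do not explain, and whether they were grown or prepared apart is not given. The WT response and the ADAM9i comparisons that rest on WT vehicle were recomputed against vehicle libraries of other backgrounds. Replicate 3 of Adam9-KO cells with rhCTHRC1 stood apart from its partners. Its score on the second principal component of log2 CPM was 32.4, against 14.6 and 12.4 for replicates 1 and 2. On that component WT libraries with rhCTHRC1 scored lowest of all groups, at -72.6 to -71.2, followed by WT vehicle libraries at -37.4 to -35.5. WT cells with rhCTHRC1 thus stood apart as well, and exchanging the vehicle libraries does not remove this.

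The 42 genes summed to 8430 ± 54.1 CPM in ADAM9i cells with rhCTHRC1 and 8844 ± 217 CPM with vehicle. In WT cells they summed to 7509 ± 136 CPM with rhCTHRC1 and 5236 ± 50.3 CPM with vehicle. They summed to 8021 ± 251 CPM in Adam9-KO cells with rhCTHRC1 and 7750 ± 53.4 CPM with vehicle, and to 6515 ± 9.58 CPM in Rosa26-KO cells with rhCTHRC1 and 8017 ± 81.4 CPM with vehicle (SD, n = 3 each). The low sums were those of WT vehicle and of Rosa26-KO cells with rhCTHRC1, and the Rosa26-KO groups did not overlap. In such bulk libraries fewer dividing cells and less of each mRNA per cell cannot be told apart.

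**Figure D1:**
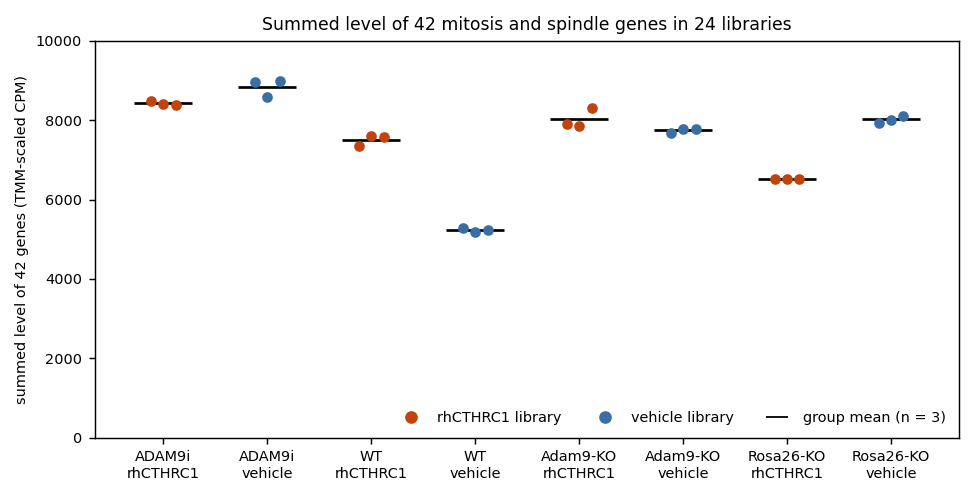
Summed TMM-scaled CPM of the 42 genes (vertical axis, from 0) in each of 24 libraries by group, with rhCTHRC1 libraries orange and vehicle libraries blue and black lines for group means of 3. WT vehicle libraries sit between 5186 and 5287 CPM, and the Rosa26-KO libraries with rhCTHRC1 between 6505 and 6524 CPM.

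The edited control cells give the response to rhCTHRC1 with an unedited Adam9 gene. In Rosa26-KO cells 33 of the 42 genes fell with rhCTHRC1, where 23.3% of 18594 genes fell (percentage at an adjusted p under 0.05, edgeR), and 0 rose, where 22.0% of genes rose. At an unadjusted p under 0.05, 34 of the 42 passed, and DESeq2 called 33 lower and 0 higher, against 31 lower and 1 higher by limma on FPKM. The median log2 change of the 42 was -0.30, beside 0.03 over all genes tested. In 35 of the 42 every rhCTHRC1 library lay below every vehicle library, where 27.4% of genes did so. The fall was shallow: the lowest fold was 0.637. Genes of every role took part. All 6 genes of cytokinesis, 4 of 4 of the checkpoint, 3 of 3 of the passenger complex, 4 of 5 of chromosome structure, 4 of 6 of the cyclin-CDK switch, 3 of 4 of anaphase, 3 of 5 of the spindle poles, 4 of 7 of the kinetochore and both Foxm1 and Mki67 were lower.

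The fall was steepest for Ect2 (ENSMUSG00000027699, chr3:27097222-27153878, GRCm38, minus strand), the exchange factor that activates RhoA at the cleavage furrow. Ect2 had 123, 128 and 132 CPM in Rosa26-KO cells with rhCTHRC1, against 189, 201 and 211 CPM with vehicle. The groups lay far apart relative to their spread, with a log2 change of -0.65 ± 0.06 (SE, adjusted p = 3.23e-07). Bub1, the checkpoint kinase that marks centromeres, had 70.3, 69.1 and 77.5 CPM with rhCTHRC1, against 107, 110 and 106 CPM with vehicle (log2 change -0.57 ± 0.06, adjusted p = 8.62e-08). Mad2l1, which inhibits Cdc20 until chromosomes are attached, had 90.0, 86.1 and 88.5 CPM with rhCTHRC1, against 134, 126 and 129 CPM with vehicle (log2 change -0.56 ± 0.04, adjusted p = 7.50e-09). Neither gene's groups overlapped.

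In the cyclin-CDK switch Cdk1 and cyclin B1 fell and cyclin B2 did not. Cdk1 had 136, 130 and 129 CPM in Rosa26-KO cells with rhCTHRC1, against 184, 181 and 169 CPM with vehicle (log2 change -0.435 ± 0.05, adjusted p = 1.08e-06). Ccnb1, its main mitotic partner, had 133, 139 and 141 CPM with rhCTHRC1, against 187, 189 and 189 CPM with vehicle (log2 change -0.45 ± 0.04, adjusted p = 1.10e-08). Ccnb2, the second B-type cyclin, had 93.7, 99.6 and 91.0 CPM with rhCTHRC1, against 90.6, 89.3 and 88.4 CPM with vehicle. Cdk1 and Ccnb1 were lower in every rhCTHRC1 library, while every Ccnb2 library with rhCTHRC1 lay slightly above the vehicle ones, and its log2 change of 0.09 ± 0.05 did not pass (adjusted p = 0.148). Ccna2, the cyclin of S phase and mitotic entry, fell with a log2 change of -0.53 ± 0.04 (adjusted p = 1.57e-09). Plk1, the kinase of mitotic entry and centrosome maturation, had 107, 100 and 94.8 CPM with rhCTHRC1, against 136, 148 and 132 CPM with vehicle (log2 change -0.46 ± 0.05, adjusted p = 4.00e-07). Its groups did not overlap.

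Of the passenger complex, which corrects wrong attachments, the kinase Aurkb had 78.3, 80.4 and 79.4 CPM in Rosa26-KO cells with rhCTHRC1, against 116, 108 and 106 CPM with vehicle (log2 change -0.47 ± 0.04, adjusted p = 4.65e-08). Its partners Birc5 and Incenp each fell with a log2 change of -0.40. The proliferation antigen Mki67, which coats mitotic chromosomes, had 453, 467 and 469 CPM with rhCTHRC1, against 567, 558 and 610 CPM with vehicle (log2 change -0.32 ± 0.03, adjusted p = 2.34e-07). Foxm1, a transcription factor of these promoters, had 208, 205 and 205 CPM with rhCTHRC1, against 232, 234 and 234 CPM with vehicle, a shallower log2 change of -0.18 ± 0.04 (adjusted p = 2.94e-04). None of these 3 genes with listed values had overlapping groups.

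The 9 genes that did not pass in Rosa26-KO cells were Ccnb2, Cdc25c, Nek2, Kif2c, Cenpa, Ndc80, Spc24, Pttg1 and Ncapd2. The microtubule depolymerase Kif2c had 120, 110 and 111 CPM with rhCTHRC1, against 115, 112 and 116 CPM with vehicle, and its log2 change of -0.01 had a 95% interval of -0.10 to 0.08. For Cenpa, the histone variant of centromeres, the log2 change was -0.02 with an interval of -0.10 to 0.06, and for the condensin subunit Ncapd2 it was -0.05 with an interval of -0.12 to 0.01. These 3 intervals exclude a fall as large as the median of the 42. For securin, Pttg1, the interval of -0.24 to 0.17 was wider. Of the 4 subunits of the Ndc80 complex, which grips microtubules, Nuf2 had a log2 change of -0.40 (adjusted p = 6.26e-07), while Spc25 had -0.17 (adjusted p = 0.0168), Ndc80 -0.12 (adjusted p = 0.0576) and Spc24 -0.09 (adjusted p = 0.300). Of the condensin genes Smc2 had -0.49 and Ncapd2 -0.05. The differences between genes of a complex were not tested.

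**Figure D2:**
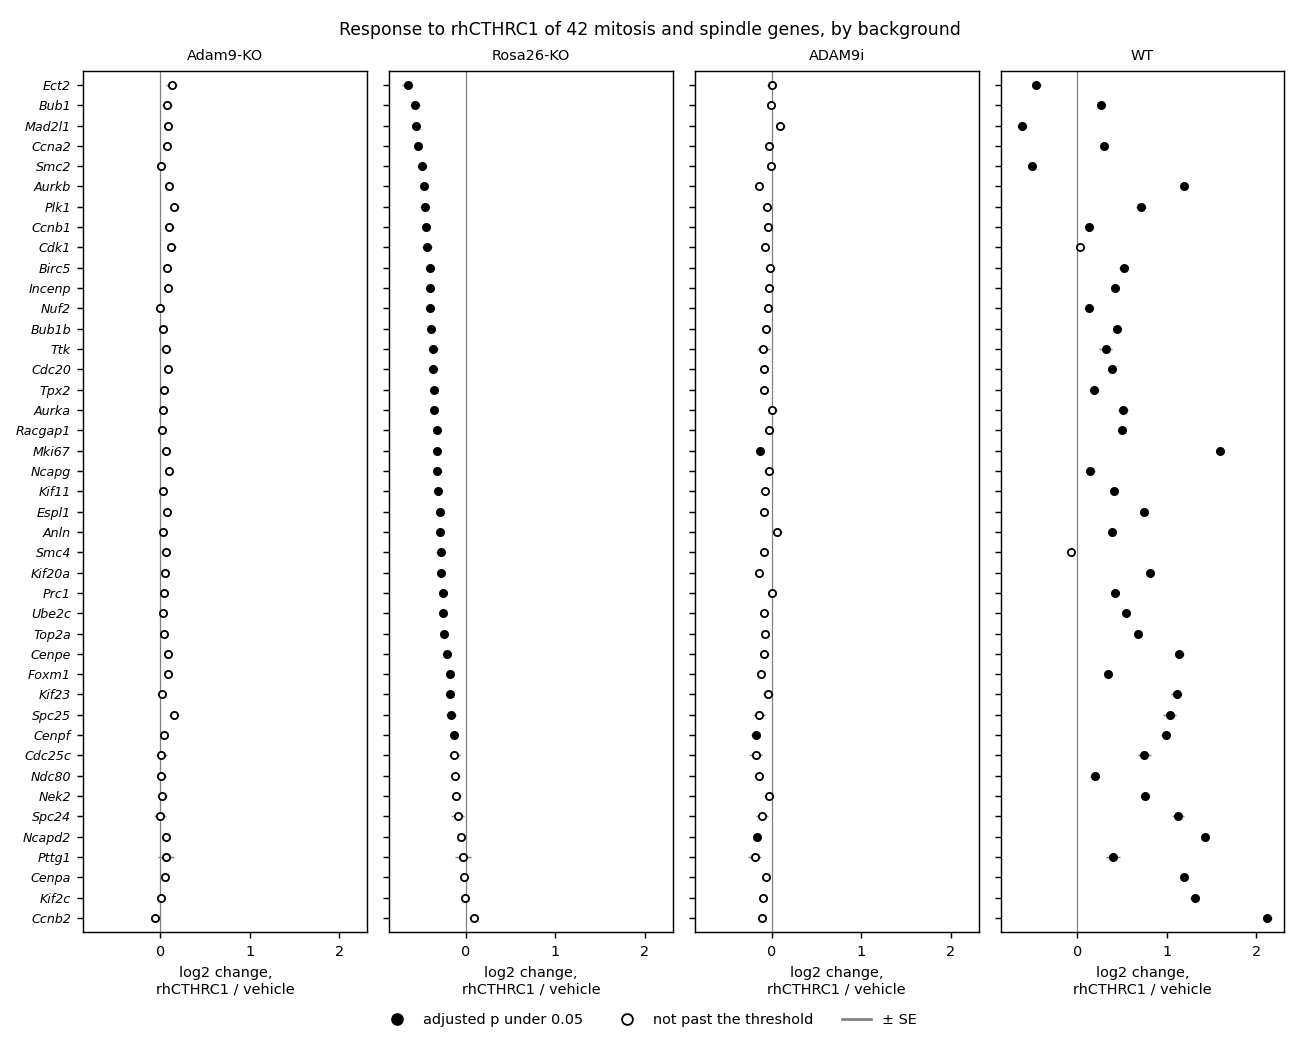
Log2 change with rhCTHRC1 over vehicle (horizontal axis) of each of the 42 genes (rows, ordered by the change in Rosa26-KO cells) in 4 backgrounds, with bars of 1 SE, filled points for an adjusted p under 0.05 and open points for the rest. In Adam9-KO cells 0 points are filled, in Rosa26-KO cells 33 are filled and left of 0, in ADAM9i cells 3 are filled, and in WT cells 37 are filled right of 0.

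In Adam9-KO cells the same genes did not follow. With rhCTHRC1, 0 of the 42 rose and 0 fell by edgeR's quasi-likelihood test, and likewise 0 by DESeq2 and by limma on FPKM, where 0 of 18594 genes were called in either direction (0% each way). At an unadjusted p under 0.05, 7 of the 42 passed, a count that has no share of all genes beside it. The median log2 change of the 42 was 0.06, beside 0.00 over all genes tested, and 39 of 42 changes were above 0. Without replicate 3 of Adam9-KO cells with rhCTHRC1, whose summed level of 8310 CPM was above the 7896 and 7857 CPM of its partners, 0 rose and 0 fell and the median was 0.03. The 95% intervals of all 42 lay between -0.17 and 0.28, which bounds the fall of any of them at less than the median fall in Rosa26-KO cells. In 5 of the 42 every rhCTHRC1 library lay above every vehicle library, where 5.34% of genes did so, and in 0 below, where 6.16% did.

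Ect2 had 164, 155 and 187 CPM in Adam9-KO cells with rhCTHRC1, against 150, 152 and 163 CPM with vehicle. Bub1 had 97.4, 104 and 113 CPM with rhCTHRC1, against 100, 95.7 and 104 CPM with vehicle. Mad2l1 had 126, 125 and 137 CPM with rhCTHRC1, against 127, 118 and 121 CPM with vehicle. All 3 pairs of groups overlapped. Plk1, with 138, 138 and 149 CPM with rhCTHRC1 against 132, 126 and 125 CPM with vehicle, had the highest of the 42 changes, a log2 change of 0.155 ± 0.05 that did not pass over all genes (adjusted p = 0.496). Cdk1 had 167, 174 and 190 CPM with rhCTHRC1 and 168, 152 and 170 CPM with vehicle, and Ccnb1 had 193, 182 and 198 CPM with rhCTHRC1 and 183, 182 and 175 CPM with vehicle. Mki67 had 597, 593 and 624 CPM with rhCTHRC1 and 575, 580 and 588 CPM with vehicle. Of these 3 genes only Mki67 had groups that did not overlap, with rhCTHRC1 above, and its log2 change of 0.06 ± 0.03 did not pass (adjusted p = 0.690).

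The difference between the 2 responses was itself tested. The response of Adam9-KO cells minus that of Rosa26-KO cells was above 0 for 34 of the 42 genes, where 20.1% of genes passed upwards, and below 0 for 0, where 17.8% passed downwards (35 at an unadjusted p under 0.05 in either direction, 34 above and 0 below by DESeq2, 31 above and 1 below by limma). Its median was 0.35 log2 units, beside -0.02 over all genes, and without replicate 3 of Adam9-KO cells with rhCTHRC1 34 were above 0 and 0 below, with a median of 0.34. The largest differences were in Ect2 (0.78 ± 0.09, adjusted p = 3.62e-06), Bub1 (0.65 ± 0.08, adjusted p = 2.42e-06) and Mad2l1 (0.65 ± 0.06, adjusted p = 2.01e-07). For Plk1 it was 0.61 ± 0.07, for Cdk1 and Aurkb 0.56 each, for Ccnb1 0.54, for Mki67 0.38 and for Foxm1 0.27, all past the threshold. Ccnb2 went the other way without passing (-0.15 ± 0.07, adjusted p = 0.0880).

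Under rhCTHRC1, Adam9-KO cells were higher than Rosa26-KO cells in 36 of the 42 genes, where 21% of genes were higher, and lower in 0, where 19.6% were lower (38 at an unadjusted p under 0.05, 36 higher and 0 lower by DESeq2, 33 higher and 0 lower by limma). Without replicate 3 of the Adam9-KO cells 35 were higher and 0 lower. The steepest difference was that of Mad2l1, at 0.54 ± 0.04 log2 units, and folds reached 1.46. Under vehicle they were higher in 0 of the 42, where 6.37% of genes were higher, and lower in 6, where 8.83% were lower. The count of 0 was accompanied by 17 of the 42 at an unadjusted p under 0.05 in either direction, and became 2 higher and 2 lower by limma on FPKM and 0 higher and 8 lower by DESeq2. The 6 were Ect2 (-0.38 ± 0.06, adjusted p = 9.13e-04), Ccna2 (-0.23 ± 0.04), Smc4 (-0.19 ± 0.05), Smc2 (-0.155 ± 0.05), Incenp (-0.145 ± 0.04) and the furrow scaffold Anln (-0.14 ± 0.04). With library sizes alone 2 were higher and 2 lower, so the split of these vehicle calls depends on the scaling. The comparison under rhCTHRC1 uses the same Rosa26-KO libraries as the fall described above.

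In ADAM9i cells the changes of these genes were small and mostly downward. With rhCTHRC1, 3 of the 42 fell, where 1.32% of 18816 genes fell, and 0 rose, where 2.66% rose. At an unadjusted p under 0.05, 16 of the 42 passed, and no alternative tool called a rise. The median log2 change was -0.08, beside -0.00 over all genes, and 37 of 42 changes were below 0. The 95% intervals of the 42 lay between -0.37 and 0.21. The 3 were Mki67, Ncapd2 and the kinetochore protein Cenpf. Mki67 had 569, 554 and 584 CPM in ADAM9i cells with rhCTHRC1, against 624, 622 and 625 CPM with vehicle (log2 change -0.13 ± 0.03, adjusted p = 0.0171). Ncapd2 had 427, 400 and 414 CPM with rhCTHRC1, against 476, 453 and 458 CPM with vehicle (log2 change -0.16 ± 0.03, adjusted p = 0.0109). Cenpf had 139, 138 and 140 CPM with rhCTHRC1, against 149, 154 and 169 CPM with vehicle, and stood at the threshold (log2 change -0.18 ± 0.05, adjusted p = 0.05). The groups of these 3 genes did not overlap, as in 14 of the 42 in that direction, where 9.47% of genes did so. The count of 3 became 1 without vehicle replicate 3 and 0 without rhCTHRC1 replicate 2 of the ADAM9i cells, and it became 6 with DESeq2, 5 with library size alone and 5 with all 24 libraries in the fit.

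The genes that led the fall in Rosa26-KO cells did not fall in ADAM9i cells. Ect2 had 176, 199 and 164 CPM in ADAM9i cells with rhCTHRC1, against 173, 184 and 181 CPM with vehicle. Bub1 had 121, 121 and 116 CPM with rhCTHRC1, against 117, 119 and 124 CPM with vehicle. Mad2l1 had 153, 150 and 152 CPM with rhCTHRC1, against 139, 135 and 151 CPM with vehicle. All 3 overlapped. In a fit over all 24 libraries, chosen after the data were seen because both responses have controls that do not stand apart, the ADAM9i response minus the Rosa26-KO response was above 0 for 28 of the 42, where 19.1% of genes passed upwards, and below 0 for 1, where 16.4% passed downwards. It was 0.66 ± 0.07 for Mad2l1, 0.655 ± 0.09 for Ect2, 0.565 ± 0.07 for Bub1, 0.41 ± 0.05 for Ccnb1 and -0.19 ± 0.06 for Ccnb2, the 1 below 0. ADAM9i and Rosa26-KO cells differ in editing as well as in the inhibitor.

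In WT cells the comparison with WT vehicle gave higher levels for most of the 42 genes. With rhCTHRC1, 37 were higher, where 32.2% of 18816 genes were higher, and 3 were lower, where 30.8% were lower. The median log2 change was 0.47, beside 0.03 over all genes tested. With library sizes alone the median over all genes moved to 0.21, 39.2% of genes were higher and 24.6% lower, and 39 of the 42 were higher and 3 lower. In the same scaling the all-gene shares in Rosa26-KO cells became 27.3% higher and 18.7% lower, with 31 of the 42 lower and 1 higher. Ccnb2 had 112, 117 and 111 CPM in WT cells with rhCTHRC1, against 26.9, 24.8 and 25.4 CPM with vehicle (log2 change 2.12 ± 0.05, adjusted p = 1.50e-17). Mki67 had 524, 522 and 555 CPM with rhCTHRC1, against 181, 171 and 173 CPM with vehicle (log2 change 1.59 ± 0.03, adjusted p = 2.29e-18). Ncapd2 had 389, 380 and 390 CPM with rhCTHRC1, against 149, 138 and 137 CPM with vehicle (log2 change 1.43 ± 0.04, adjusted p = 3.79e-17). The WT vehicle libraries of all 3 lay below every other library of the study.

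The genes that fell in WT cells were Mad2l1, Smc2 and Ect2. Mad2l1 had 83.6, 93.8 and 92.6 CPM with rhCTHRC1, against 130, 142 and 139 CPM with vehicle (log2 change -0.62 ± 0.05, adjusted p = 1.19e-09). Smc2 had 141, 149 and 152 CPM with rhCTHRC1, against 195, 216 and 208 CPM with vehicle (log2 change -0.50 ± 0.04, adjusted p = 9.68e-10). Ect2 had 146, 151 and 153 CPM with rhCTHRC1, against 205, 197 and 211 CPM with vehicle (log2 change -0.46 ± 0.05, adjusted p = 2.46e-07). These 3 genes were not low in WT vehicle: their levels there lay within the range of the other backgrounds' vehicle libraries. Cdk1, with 131, 130 and 126 CPM with rhCTHRC1 and 124, 129 and 122 CPM with vehicle, overlapped and did not pass (adjusted p = 0.505).

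**Figure D3:**
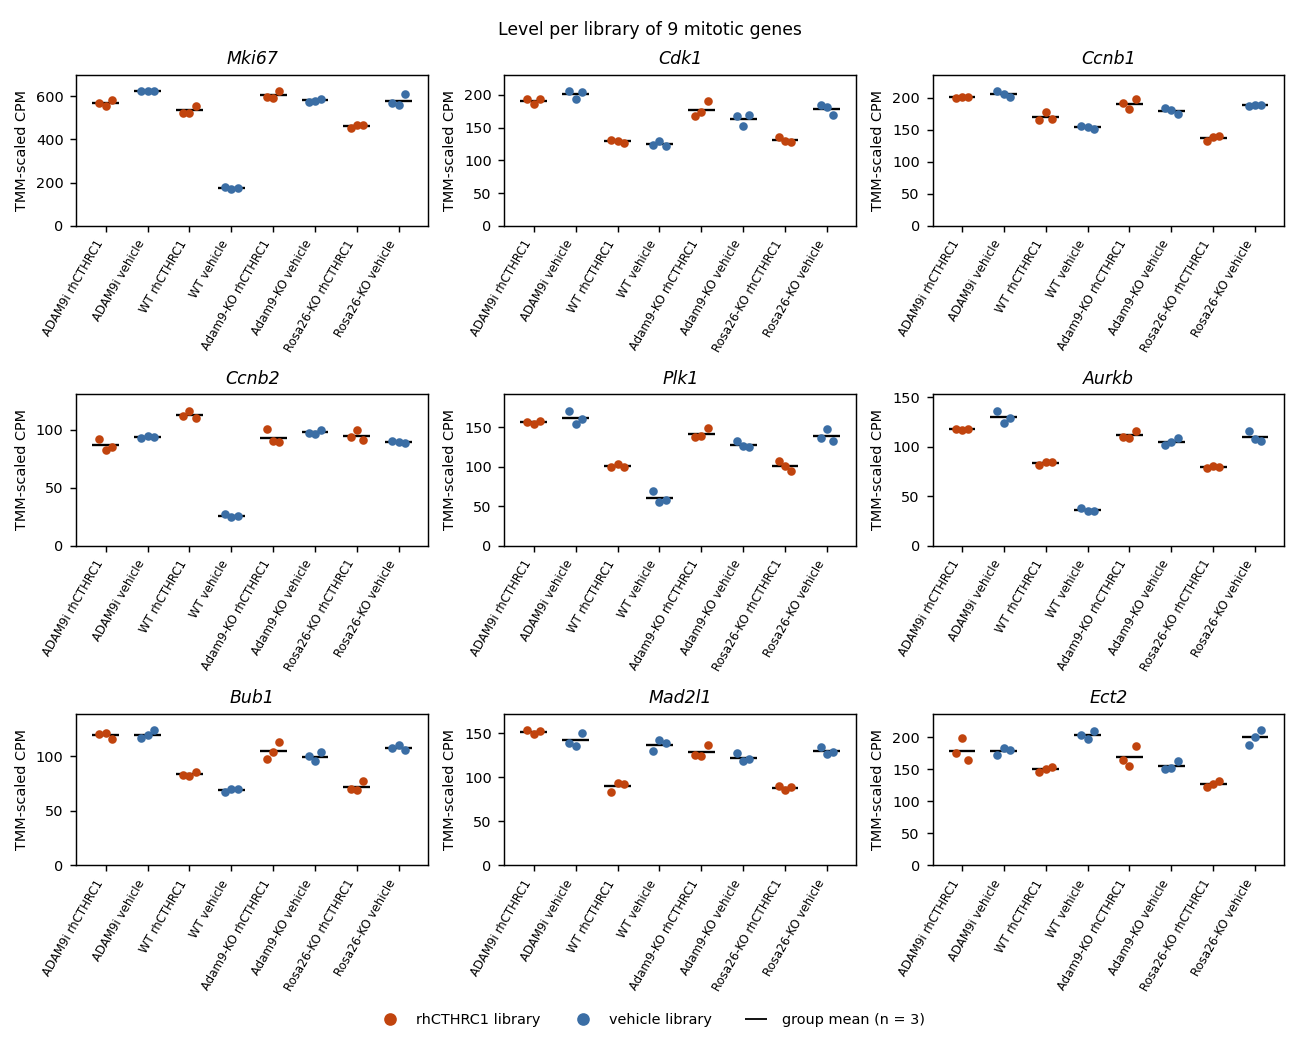
TMM-scaled CPM (vertical axes, from 0) of 9 of the genes in each library by group, with rhCTHRC1 libraries orange, vehicle libraries blue and black lines for means of 3. In WT vehicle Mki67 (171 to 181 CPM), Ccnb2 (24.8 to 26.9 CPM) and Aurkb (35.0 to 38.5 CPM) lie far below all other groups, while Mad2l1 and Ect2 do not. In Rosa26-KO cells the rhCTHRC1 points of all but Ccnb2 lie below the vehicle points.

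How far the WT result rests on its vehicle libraries was measured by setting the same rhCTHRC1 libraries against the other vehicle groups. Against ADAM9i vehicle, 2 of the 42 were higher, where 24.6% of genes were higher, and 32 lower, where 25.8% were lower. Against Adam9-KO vehicle 9 were higher (20.1% of genes) and 17 lower (23.9%), and against Rosa26-KO vehicle 11 were higher (24.4%) and 21 lower (25.7%). Mki67 was lower in all 3, with log2 differences of -0.225, -0.12 and -0.115 in that order, and Aurkb likewise, with -0.64, -0.34 and -0.40. Incenp (-0.70, -0.50 and -0.63), Mad2l1 (-0.66, -0.44 and -0.53), Plk1 (-0.685, -0.34 and -0.46) and Cdk1 (-0.64, -0.34 and -0.465) were also lower in all 3. Ccnb2 was higher in all 3 (0.27, 0.21 and 0.34), so its direction did not depend on the vehicle libraries used. These 3 comparisons share the WT rhCTHRC1 libraries and differ in background, so background and rhCTHRC1 cannot be told apart in them.

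**Figure D4:**
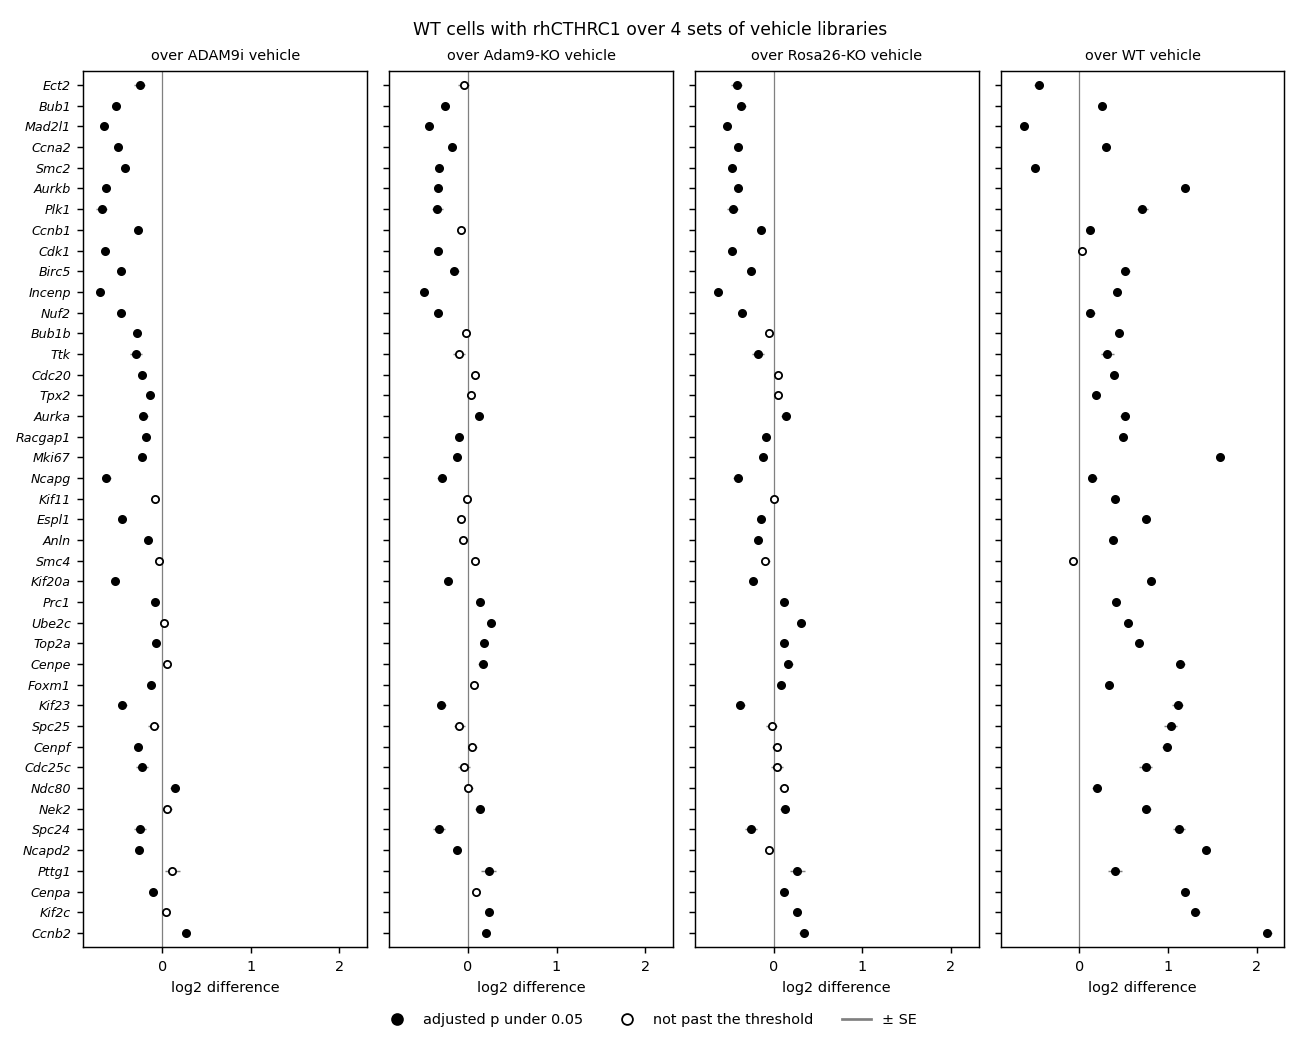
Log2 difference (horizontal axis) of the 42 genes (rows, in the order of their Rosa26-KO response) in WT cells with rhCTHRC1 over the vehicle libraries of 4 backgrounds, with bars of 1 SE and filled points for an adjusted p under 0.05. Over ADAM9i vehicle 32 genes are lower, and over WT vehicle 37 are higher.

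Under vehicle, ADAM9i cells were higher than WT cells in 37 of the 42 genes, where 29.9% of genes were higher, and lower in 1, Ect2, where 27.5% were lower. In 1 of the 42 every ADAM9i library lay below every WT one, where 30.4% of genes did so. Rosa26-KO cells were higher than WT cells in 36, where 27.9% of genes were higher, and lower in 0, where 25.8% were lower (36 at an unadjusted p under 0.05, 36 higher and 0 lower by DESeq2, 38 higher and 0 lower by limma). Both share WT vehicle. Ccnb2 had 93.2, 94.2 and 93.4 CPM in ADAM9i vehicle cells and 90.6, 89.3 and 88.4 CPM in Rosa26-KO vehicle cells, against 26.9, 24.8 and 25.4 CPM in WT vehicle cells. Aurkb had 137, 124 and 129 CPM in ADAM9i vehicle cells and 116, 108 and 106 CPM in Rosa26-KO vehicle cells, against 38.5, 35.0 and 35.0 CPM in WT vehicle cells. Set against Rosa26-KO vehicle in place of WT vehicle, ADAM9i vehicle cells were higher in 24 (7.31% of genes) and lower in 0 (7.92%), with folds of at most 1.27.

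The 2 treated groups in which ADAM9 was neither edited nor inhibited could be compared without WT vehicle. Under rhCTHRC1, Rosa26-KO cells were lower than WT cells in 29 of the 42, where 14.1% of genes were lower, and higher in 2, where 18.3% were higher. Ube2c, the ubiquitin-conjugating enzyme of the anaphase-promoting complex, had 125, 121 and 124 CPM in Rosa26-KO cells, against 173, 192 and 182 CPM in WT cells, both with rhCTHRC1 (log2 difference -0.57 ± 0.04, adjusted p = 8.23e-12). Those higher in Rosa26-KO cells were Incenp (0.23 ± 0.04) and the central spindle motor Kif23 (0.20 ± 0.05). Cdk1 (0.03 ± 0.04, adjusted p = 0.705), Plk1 (0.00 ± 0.06, adjusted p = 0.974), Mad2l1 (-0.03) and Smc2 (-0.02) did not pass. ADAM9i cells were higher than WT cells under rhCTHRC1 in 25 of the 42, where 28% of genes were higher, and lower in 4, where 26.1% were lower. With library sizes alone, these were 18 higher and 12 lower. Mad2l1 led at 0.76 ± 0.05, with 153, 150 and 152 CPM in ADAM9i cells against 83.6, 93.8 and 92.6 CPM in WT cells, and Incenp followed at 0.68 ± 0.04. Ccnb2 was lowest, at -0.37 ± 0.05.

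The ADAM9i response minus the WT response was below 0 for 36 of the 42, where 28.3% of genes passed downwards, and above 0 for 3, where 27.8% passed upwards. Mad2l1 (0.72 ± 0.07), Smc2 (0.49 ± 0.06) and Ect2 (0.46 ± 0.07) were the 3 above 0, and Ccnb2 (-2.23 ± 0.07) and Mki67 (-1.73 ± 0.04) were the lowest. With Rosa26-KO vehicle in place of WT vehicle, chosen after the data were seen, 14 were above 0 (22.7% of genes) and 12 below (20%), and the difference was -0.02 for Mki67 and -0.45 for Ccnb2. Mad2l1 (0.63), Smc2 (0.46) and Ect2 (0.42) remained above 0 with that vehicle.

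The Rosa26-KO and WT responses share no library, and across the 42 genes their log2 changes had a Pearson r of 0.681 and a Spearman rho of 0.616, beside 0.499 and 0.589 across 18043 genes tested in both fits. Most of the 42 fell in Rosa26-KO cells and were higher in WT cells. The Rosa26-KO and ADAM9i responses, which also share no library, had r = -0.575 and rho = -0.591 across the 42, beside -0.0535 and -0.17 across all. In the Rosa26-KO and WT responses Ect2, Mad2l1 and Smc2 lay at the low end, and Ccnb2 at the high end. The points are genes of the same libraries and are not independent replicates.

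**Figure D5:**
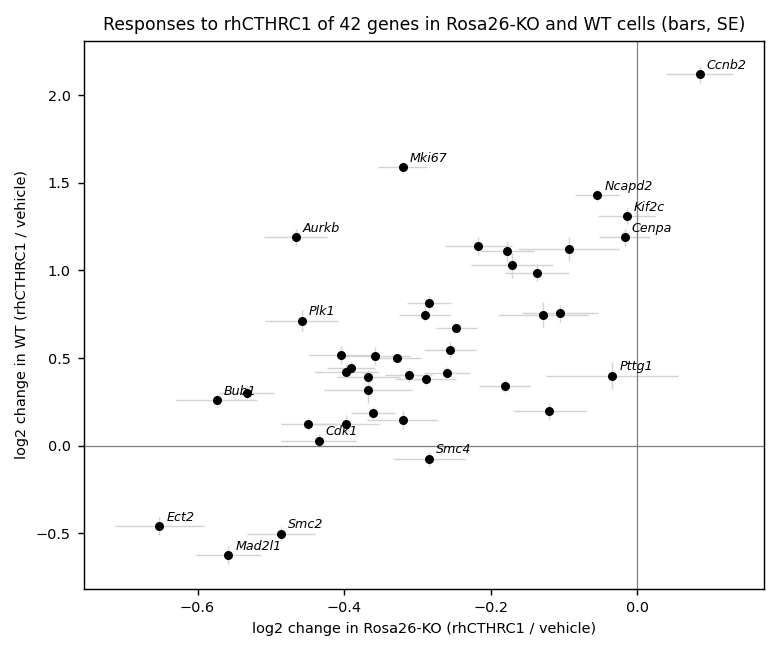
Log2 change with rhCTHRC1 over vehicle of each of the 42 genes in Rosa26-KO cells (horizontal axis) and in WT cells (vertical axis), with bars of 1 SE and selected genes named. Ect2, Mad2l1 and Smc2 sit at the lower left and Ccnb2 at the upper right, at 0.09 and 2.12.

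Other genes of the pathway were described from 7 further lists, to be read beside the shares of all genes called: 23.3% lower and 22.0% higher in Rosa26-KO cells, 0% either way in Adam9-KO cells, 1.32% lower and 2.66% higher in ADAM9i cells, and 30.8% lower and 32.2% higher in WT cells. Of 72 other mitotic genes, 48 fell and 3 rose with rhCTHRC1 in Rosa26-KO cells (median log2 change -0.26, beside 0.03 over all genes), and 0 rose and 2 fell in ADAM9i cells. The Adam9-KO response minus the Rosa26-KO response was above 0 for 47 of them and below 0 for 1, where 20.1% and 17.8% of all genes passed. In WT cells 45 were higher and 16 lower. Trip13, the ATPase that takes Mad2 complexes apart, averaged 34.4 ± 3.93 CPM with rhCTHRC1 and 30.1 ± 2.81 CPM with vehicle in Adam9-KO cells, against 20.1 ± 0.768 CPM with rhCTHRC1 and 36.3 ± 0.689 CPM with vehicle in Rosa26-KO cells (SD, n = 3 each). Its Adam9-KO response minus its Rosa26-KO response was 1.05 ± 0.11 log2 units (adjusted p = 7.33e-07). The kinesin Kif18a fell in Rosa26-KO cells as well (-0.685 ± 0.08). Of 17 genes of tubulins and the gamma-tubulin complex 14 fell and 2 rose in Rosa26-KO cells, where 23.3% of all genes fell and 22.0% rose, with Tuba1b at 1037 ± 17.7 CPM with rhCTHRC1 and 1423 ± 47.8 CPM with vehicle.

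Of 19 genes of the DREAM, MuvB and E2F regulators, 11 fell and 2 rose in Rosa26-KO cells, beside the same shares of 23.3% and 22.0%. Mybl2, which encodes B-Myb, had 75.9 ± 4.55 CPM with rhCTHRC1 and 67.2 ± 4.49 CPM with vehicle in Adam9-KO cells. In Rosa26-KO cells it fell to 39.0 ± 1.34 CPM with rhCTHRC1, against 75.5 ± 2.70 CPM with vehicle (log2 change -0.95 ± 0.06, adjusted p = 1.94e-10). Its Adam9-KO response minus that of Rosa26-KO cells was 1.13 ± 0.08 (adjusted p = 4.15e-09). In ADAM9i cells it rose by 0.185 ± 0.04 (adjusted p = 0.0155). The log2 change of Mybl2 was larger than that of any of the 42 genes, whose lowest was the -0.65 of Ect2, and the differences between genes were not tested. The anaphase-promoting complex had 9 of 17 genes lower and 2 higher in Rosa26-KO cells, and cohesin and its regulators 8 of 13 lower and 1 higher, again beside 23.3% and 22.0% of all genes.

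Earlier in the cycle, 5 of 12 genes of G1 cyclins and their kinases fell in Rosa26-KO cells and 1 rose, where 23.3% of all genes fell and 22.0% rose. Cyclin D2, Ccnd2, averaged 236.7 ± 9.30 CPM with rhCTHRC1 and 409.5 ± 8.11 CPM with vehicle there (log2 change -0.79 ± 0.04, adjusted p = 1.92e-11). In ADAM9i cells 4 of the 12 rose and 0 fell, where 2.66% of all genes rose and 1.32% fell, with Ccnd1 at 245.0 ± 14.3 CPM with rhCTHRC1 and 176.6 ± 4.62 CPM with vehicle and Ccnd2 rising by 0.32 ± 0.04. The ADAM9i response minus the Rosa26-KO response was 1.11 ± 0.06 for Ccnd2. Of 16 CDK inhibitors and mitotic brakes, Rosa26-KO cells had 9 higher with rhCTHRC1, where 22.0% of all genes rose, and 4 lower, a share near the 23.3% of all genes. Ccng2, an unconventional cyclin linked to cell cycle arrest, averaged 110.3 ± 3.64 CPM with rhCTHRC1 and 51.3 ± 2.92 CPM with vehicle there (log2 change 1.11 ± 0.06, adjusted p = 7.22e-11). Cdkn1a, the inhibitor p21, went the other way (-1.08 ± 0.18, adjusted p = 1.55e-04). In Adam9-KO cells 0 genes of these lists were called by edgeR, as were 0 of all 18594 genes, so the count says nothing particular about the lists.

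Fibroblast and smooth muscle markers also changed with rhCTHRC1 in Rosa26-KO cells. Of 5 fibroblast markers tested 4 rose with rhCTHRC1, where 22.0% of all genes rose, while Thy1 was at or near 0 throughout. The summed level of the fibroblast markers was 482.6 to 502.4 CPM in Rosa26-KO cells with rhCTHRC1 against 303.1 to 329.1 CPM with vehicle. Most of the fibroblast sum was 1 gene, Pdgfra, at 397.9 ± 8.23 CPM with rhCTHRC1 and 252.4 ± 13.0 CPM with vehicle. Lum averaged 0.449 CPM with rhCTHRC1 and 0.656 CPM with vehicle. Smooth muscle markers summed to 130.1 to 133.7 CPM with rhCTHRC1 against 518.8 to 535.7 CPM with vehicle. Of these 8 markers 4 were lower, where 23.3% of all genes were lower, and 1 was higher, where 22.0% were higher. Most of that difference was 1 gene, Acta2, at 40.6 ± 1.78 CPM with rhCTHRC1 and 414.9 ± 5.72 CPM with vehicle, while Des averaged 8.54 CPM with rhCTHRC1 and 4.18 CPM with vehicle. In Adam9-KO cells the fibroblast sums were 299.1 to 341.9 CPM with rhCTHRC1 and 342.9 to 352.6 CPM with vehicle, and in WT cells 400.8 to 426.7 CPM and 75.01 to 81.39 CPM with rhCTHRC1 and with vehicle. Macrophage, endothelial and epithelial markers summed to at most 17.6, 27.2 and 8.81 CPM in any library. Their part in the changes of the mitotic genes was not tested. Ccna2, Cdc20, Kif20a, Ncapg and Prc1 overlap Exosc9, Elovl1, Cdc23, Lcorl and Rccd1 on the opposite strand, and whether the counting used strand is not given in the sources used here, so reads of these pairs may not be told apart. The pseudogenes Ccnb1-ps and Ccnb2-ps averaged 2.05 and 1.33 CPM, low beside the cyclins they resemble.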

How the data were processed

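RNA from 24 libraries of MOVAS cells, 3 in each of 8 groups, was sequenced as 150-base paired-end stranded total RNA, per the labels' protocols. Per the submitters' processing notes, the GRCm38 build was used with HISAT2, StringTie and DESeq2, given without versions or roles. The authors deposited gene counts, not normalized, and FPKM values for 33034 genes. No 2 libraries of a group agreed within sampling noise. The counts were fitted with edgeR 4.0.16 (filterByExpr, TMM scaling, robust quasi-likelihood F test, R 4.3.3) over all genes passing the filter, in a 12-library fit of ADAM9i and WT cells, a 12-library fit of Adam9-KO and Rosa26-KO cells and a 24-library fit for comparisons across them (a split made for the fits, not one the labels state), with Benjamini-Hochberg adjustment over all genes tested and a threshold of 0.05. Adjusted p-values in the report come from this test unless another tool is named, and SE and 95% intervals from its F statistics. Counts at an unadjusted p are given without the share of all genes at that threshold, so they cannot be read against it. The fits were also run on simulated counts in which few genes changed, so that run does not bear on the effect of scaling here. FPKM served to compare levels between genes and, as log2(FPKM + 1), in limma 3.58.1. DESeq2 1.42.0, other scalings, no filter, a replicate block, other vehicle libraries and leaving out each library were alternatives. Replicate numbers in the titles are not stated to pair libraries.

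Genes named with values by library were 6 anchors (Mki67, Ccnb1, Cdk1, Plk1, Aurkb and Foxm1), the 3 of largest change each way among those called in a comparison and those farthest from the median of the 42, with up to 3 called genes from each further list; examples beyond this rule were chosen after their values were seen. Members and lists were chosen with earlier results of these data known, and the marker lists were of smooth muscle, endothelium, macrophages, epithelium and fibroblasts. Library totals were 53135752 to 65833125 counts; no interval here covers more than the spread between libraries.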

Additional observations from a re-analysis of the deposited data

Results flagged for a closer look

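The response to rhCTHRC1 differed between backgrounds by a test of the difference itself. It differed between Adam9-KO and Rosa26-KO cells in 34 of the 42 genes, all above 0. Of all genes 20.1% passed upwards and 17.8% downwards in that test. Among the genes named with values, the Adam9-KO minus Rosa26-KO difference on the log2 scale was 0.778 for Ect2, 0.651 for Bub1, 0.646 for Mad2l1, 0.613 for Plk1, 0.559 for Cdk1, 0.559 for Aurkb, 0.542 for Ccnb1, 0.384 for Mki67 and 0.268 for Foxm1.

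Between ADAM9i and WT cells it differed in 39 of the 42 genes, 36 below 0 and 3 above. Of all genes 28.3% passed downwards and 27.8% upwards, so a large share of all genes differed as well. The ADAM9i minus WT difference was -2.23 for Ccnb2, -1.73 for Mki67, -1.59 for Ncapd2, -1.33 for Aurkb, -0.765 for Plk1, -0.463 for Foxm1 and -0.163 for Ccnb1, and 0.461 for Ect2, 0.493 for Smc2 and 0.722 for Mad2l1. These values rest on the WT vehicle libraries. With Rosa26-KO vehicle in place of WT vehicle, those of Aurkb and Plk1 turned to 0.257 and 0.41. That of Ccnb1 became 0.11, which did not pass (adjusted p = 0.0676). The gap check for single values far from their group needs at least 4 libraries and was not run on these groups of 3. Over all genes, replicate 3 of Adam9-KO cells with rhCTHRC1 differed from replicates 1 and 2 by a chi-square per gene of 14.5 and 17.1, against 9.93 between those 2 libraries.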

How the results depend on the processing

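The falls in Rosa26-KO cells and the differences from Adam9-KO cells held their counts within 1.5 times under every alternative run. Leaving out 1 library gave 32 to 34 lower and 0 higher in Rosa26-KO cells, 0 either way in Adam9-KO cells, and 32 to 34 above and 0 to 1 below for their difference (1 without Adam9-KO rhCTHRC1 replicate 1). Library size alone and limma on FPKM each gave 1 higher in Rosa26-KO cells and 1 below in the difference. Spc25 and Cenpf were called lower in Rosa26-KO cells in 11 and 12 of 16 settings. Numbers did not pair the libraries (same-number correlations of -0.0451 to 0.0492, not every library closest to its own number), and the replicate block gave 33 lower in Rosa26-KO cells.

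Under library size alone the median log2 change of all genes moved to 0.212 in WT cells, 0.104 in Rosa26-KO cells, -0.236 for ADAM9i minus WT, -0.163 for ADAM9i against WT under rhCTHRC1 and -0.105 for Adam9-KO minus Rosa26-KO. Under vehicle, Adam9-KO against Rosa26-KO had 2 higher and 2 lower with library size alone and with limma, 1 higher with only the groups compared, and leaving out a library gave 0 higher and 2 to 5 lower (3 without Rosa26-KO vehicle replicate 2, 2 without Adam9-KO vehicle replicate 1, 3 without Adam9-KO vehicle replicate 2). Under rhCTHRC1 it was 35 to 37 higher and 0 lower. ADAM9i against WT under rhCTHRC1 had 15 higher with limma and 12 lower with limma and with library size alone, where Foxm1 moved to -0.128 and Mki67 to -0.0371 (limma: -0.132 and -0.0437 with a pseudocount of 1, -0.135 and -0.0445 with 0.1); leaving out a library gave 23 to 27 higher and 3 to 6 lower. Rosa26-KO against WT without a library had 36 higher and 0 to 1 lower under vehicle (1 without WT vehicle replicate 1), and 2 higher and 23 to 30 lower under rhCTHRC1.

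In ADAM9i cells 5 fell with library size alone, 6 with DESeq2 and 5 with all 24 libraries, and 0 to 3 without a library, with 0 higher. ADAM9i against WT under vehicle had 24 higher and 0 lower with Rosa26-KO vehicle, 2 lower with RLE factors, and 37 higher and 1 to 2 lower without a library (2 without WT vehicle replicate 1). The WT response was 35 to 37 higher and 3 lower without a library. With Rosa26-KO, ADAM9i and Adam9-KO vehicle in that order it was 11, 2 and 9 higher and 21, 32 and 17 lower, and these genes changed sign: Aurkb -0.398, -0.64 and -0.338, Ccnb1 -0.148, -0.278 and -0.0818, Cdk1 -0.465, -0.644 and -0.34, Mki67 -0.115, -0.225 and -0.122, Plk1 -0.463, -0.685 and -0.344, Ncapd2 -0.0525, -0.26 and -0.124, and Foxm1 -0.122 with ADAM9i vehicle. Of these values, -0.0818 for Ccnb1 (adjusted p = 0.0533) and -0.0525 for Ncapd2 (adjusted p = 0.183) did not pass. ADAM9i minus WT had 3 above and 35 to 38 below without a library, 14 above and 12 below with Rosa26-KO vehicle, and 28 above and 1 below against the Rosa26-KO response, both chosen after seeing the data. There Aurkb was 0.257 and 0.326, Ccnb1 0.11 and 0.413, Cdk1 0.388 and 0.359, Plk1 0.41 and 0.405, and against the Rosa26-KO response Foxm1 was 0.0597 and Mki67 0.187. The 0.11 of Ccnb1 (adjusted p = 0.0676) and the 0.0597 of Foxm1 (adjusted p = 0.401) did not pass. The cause was not tested.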

Other observations

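Earlier cell cycle genes also differed with rhCTHRC1 in WT cells. Of 12 genes of G1 cyclins and their kinases 10 were lower with rhCTHRC1 and 0 higher, where 30.8% of all genes were lower and 32.2% higher, and Ccnd2 averaged 235.4 ± 3.30 CPM with rhCTHRC1 and 470.5 ± 6.85 CPM with vehicle (SD, n = 3 each). Mybl2 averaged 39.7 ± 1.66 CPM with rhCTHRC1 and 84.3 ± 2.79 CPM with vehicle in WT cells, and Trip13 averaged 16.6 ± 0.503 CPM with rhCTHRC1 and 48.8 ± 1.22 CPM with vehicle. Ccnd2, Mybl2 and Trip13 were thus lower with rhCTHRC1 in WT cells as in Rosa26-KO cells, while Mki67 and Ccnb2 were higher with rhCTHRC1 in WT cells. Ccng2 averaged 120.3 ± 2.90 CPM with rhCTHRC1 and 31.4 ± 2.83 CPM with vehicle in WT cells. These WT values use the vehicle libraries that stood apart, and the cause was not tested.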
